A study of Mus musculus with 4 samples.

Results

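The 10 enzyme genes of serine, one-carbon folate and proline synthesis were followed on 4 two-colour Agilent mouse arrays. They were chosen by name as the enzymes of these pathways, and 9 of the 10, with 14 spots, were found among 19087 genes and 45220 spots. Pycr1, the last enzyme of proline synthesis, had no spot under that symbol in the annotation used here and was not analysed here. Each array held RNA of 1 mtBALB culture (the mutant line, LMEB3(mtBALB), with mitochondria of BALB/cJ mice) and 1 mtB6 culture (the wild type control, LMEB3(mtB6), with mitochondria of C57BL/6J mice), both fibroblasts at passage 3 in high glucose medium with fetal bovine serum. A cybrid is a cell whose nucleus and mitochondrial DNA come from different sources. Both lines carry the LMEB3 name and differ in mitochondrial strain, and the labels speak of biological replicates and of independent clones without saying which culture is which clone. On replicates 1 and 3 the mtBALB RNA carried Cy3 and the mtB6 RNA Cy5, and on replicates 2 and 4 the dyes were exchanged.

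Serine is made from the glycolytic intermediate 3-phosphoglycerate, and serine hydroxymethyltransferases then pass a carbon of it to tetrahydrofolate while forming glycine. The carbon units circulate between mitochondria and cytosol, mostly as formate, and serve the synthesis of purines and thymidylate. Proline is made from glutamate in mitochondria. In mammalian cells several of these enzymes are known targets of the transcription factor ATF4 and are often induced when the respiratory chain fails.

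The values are the authors' deposited ratios between the lines, taken as log2, so that 0 means equal signal and 1 a doubling. The labels do not say which line is the numerator, and the 4 arrays were read as running the same way. A sign below therefore names a side of the deposited ratio, and neither line is called the higher. A ratio holds no level, so the fibroblast label could not be set against its markers, and in whole cultures fewer cells of a type and less RNA per cell cannot be told apart. The medians over all genes lay between -0.0060 and 0.0039 on the arrays, and Pearson's r over genes for the 6 pairs of arrays was between -0.19 and 0.05. No spot of the 9 enzymes was dim on any array, dim meaning that its exact value was shared by 3 or more spots, whereas 9774 of the 19087 genes had such a never dim spot. Brightness itself was not measured, and precision is limited by the small number of arrays.

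No difference between the lines was found for any of the 9 enzymes at the thresholds used. At an adjusted p of 0.05 in limma with a dye term, 0 of 9 passed (0% of all genes), and 0 of 9 had an unadjusted p under 0.05 (3.64% of all genes). The unadjusted p-values lay between 0.12 for Phgdh and 0.937 for Psat1, and the adjusted p was 0.9997 for each. The median of the 9 mean ratios was 0.02, against -0.0010 for all genes. Of the 9, 5 had a positive mean, against 49.5% of all genes. No enzyme had 1 sign on all 4 arrays, as 9.02% of genes did, while 5 had 3 arrays on 1 side (47.3% of genes) and 4 were split evenly (43.7% of genes). The 95% intervals reached from 0.18 to 0.57 to either side of the mean, so that smaller differences could not be shown with 4 arrays. These intervals are not adjusted for the number of genes, and a larger difference need not pass the adjusted threshold. The replicates may be separate clones or cultures of 1 clone, and the p-values measure only the spread between these pairs.

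**Figure D1:**
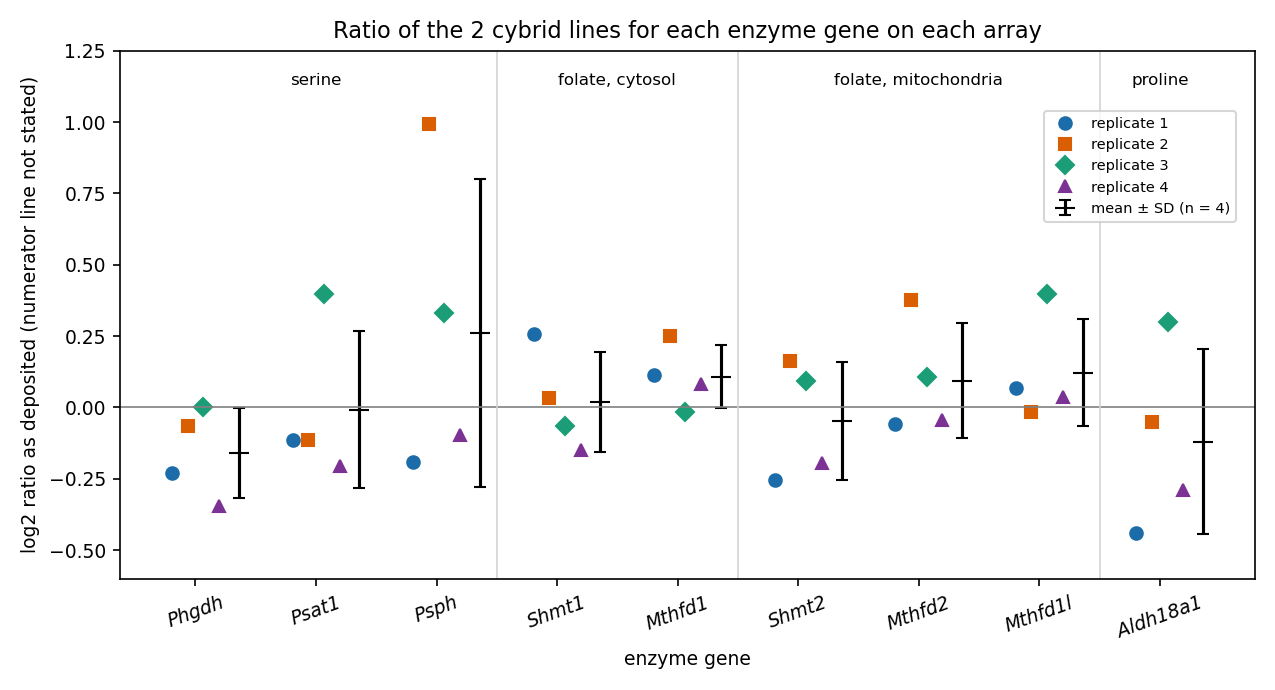
Log2 ratio as deposited (vertical axis) of the 9 enzyme genes on each of the 4 arrays, with symbols for replicates 1 to 4 and the mean ± SD (n = 4) beside them. Psph stands at 0.99 on replicate 2, and every gene has arrays on both sides of 0.

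The serine synthesis enzymes had the same signs on replicates 1, 3 and 4 and parted on replicate 2, where Psph was high. Phgdh, the dehydrogenase that commits 3-phosphoglycerate to serine, had log2 ratios of -0.23, -0.07, 0.0013 and -0.35 on replicates 1 to 4. It was on the negative side on 3 arrays and near 0 on replicate 3, with a mean of -0.16 ± 0.16 (SD, n = 4; limma 95% interval -0.38 to 0.06). The fitted mean was -0.10 without replicate 1 and -0.09 without replicate 4. Psph, the phosphatase of the last step, had -0.19, 0.99, 0.33 and -0.10. Replicate 2 was the highest pair, a difference of 1.99-fold in signal that lay above 99.5% of the genes with a never dim spot on that array. Its mean of 0.26 ± 0.54 had the widest interval of the 9, from -0.31 to 0.83, and without replicate 2 the fitted mean was -0.01. Psat1, the aminotransferase between these 2 steps, had -0.12, -0.11, 0.40 and -0.20, with a mean of -0.0087 ± 0.27. It was positive on replicate 3 alone, and the 3 other arrays lay between -0.20 and -0.11.

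The start-site regions of Phgdh and Psph are printed because these genes, of 1 pathway, were the least alike of the 36 pairs of enzymes, with a root mean square difference of 0.57 over the 4 arrays. Psph minus Phgdh was 0.04, 1.06, 0.33 and 0.25 on replicates 1 to 4, so that replicate 2 made most of this distance. The next largest distances also held Psph, and a link between sequence and ratio was not tested. The start-site region of Aldh18a1 is printed because it holds the only motif match found. Each runs 5′ to 3′ on the minus strand of GRCm38.p6 from RefSeq, from 250 bases before the annotated start site, and the capitals mark the start-site base and, in Aldh18a1, an E-box.
Phgdh (chr3:98339920-98340219): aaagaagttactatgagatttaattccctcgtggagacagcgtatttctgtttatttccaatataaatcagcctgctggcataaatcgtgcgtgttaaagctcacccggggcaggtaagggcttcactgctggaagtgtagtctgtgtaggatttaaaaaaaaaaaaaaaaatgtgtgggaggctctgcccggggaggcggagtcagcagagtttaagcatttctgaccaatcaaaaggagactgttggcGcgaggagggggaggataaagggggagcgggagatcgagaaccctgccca
Psph (chr5:129787204-129787503): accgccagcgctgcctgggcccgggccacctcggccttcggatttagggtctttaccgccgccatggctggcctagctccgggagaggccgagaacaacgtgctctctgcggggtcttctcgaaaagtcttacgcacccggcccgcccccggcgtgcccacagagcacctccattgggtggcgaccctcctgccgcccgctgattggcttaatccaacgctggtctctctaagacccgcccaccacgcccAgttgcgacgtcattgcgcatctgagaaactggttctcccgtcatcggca
Aldh18a1 (chr19:40588414-40588713): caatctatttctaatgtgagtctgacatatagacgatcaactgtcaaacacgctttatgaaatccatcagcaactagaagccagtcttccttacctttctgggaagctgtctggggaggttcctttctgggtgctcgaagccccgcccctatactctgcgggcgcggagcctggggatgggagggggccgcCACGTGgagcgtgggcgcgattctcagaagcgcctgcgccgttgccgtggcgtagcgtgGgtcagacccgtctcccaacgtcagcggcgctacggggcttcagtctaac

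All 9 enzymes matched the RefSeq promoter table, with 10 windows of 300 bases. The motifs were searched on both strands. TGATGNAA, the core of the C/EBP-ATF element, was found in 0 of the 10 windows and in 3.97% of all 32851 windows. The cAMP response element TGACGTCA was found in 0 of 10 and in 1.79% of all windows. The E-box CACGTG, which reads the same on both strands, was found in 1 of 10 windows, 59 bases before the start site of Aldh18a1, and in 7.15% of all windows. With 1 site found in these windows, no overlap between motifs could arise, and a match describes letters only.

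Separate spots of a gene showed how far its ratios agreed on an array. The spots of Psph gave 0.995 and 0.991 on replicate 2, so that its high ratio was read at both, and they had the same sign on every array with a largest gap of 0.20. The 2 spots of Shmt1 also had the same sign on every array, with gaps up to 0.31. The 3 spots of Phgdh lay on both sides of 0 on replicates 2 and 3, where they reached from -0.19 to 0.10 and from -0.17 to 0.22. Only 1 of them was negative on all 4 arrays, with -0.10, -0.19, -0.17 and -0.44. The spots of Mthfd1 disagreed in sign on replicates 1, 3 and 4, and on replicate 1 they stood at 0.29 and -0.06. The largest gap between spots on an array, 0.39 for Phgdh on replicate 3, exceeded the size of every mean ratio of the 9 enzymes. A gap on 1 array and a mean over 4 are unlike measures. The spot means of Phgdh over the 4 arrays lay between -0.22 and -0.13. Whether the spots of a gene carry the same probe was not tested, so the gaps are not a measure of noise alone.

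**Figure D2:**
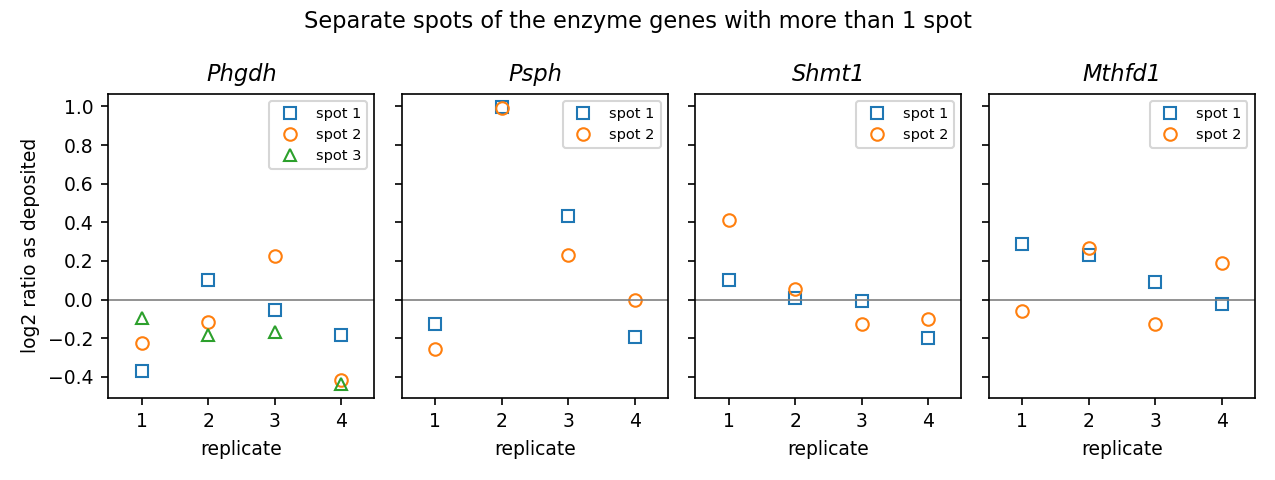
Log2 ratio as deposited (vertical axis) of each spot of Phgdh, Psph, Shmt1 and Mthfd1 on replicates 1 to 4 (horizontal axis), 1 symbol per spot. Both spots of Psph coincide near 0.99 on replicate 2, and those of Mthfd1 lie on opposite sides of 0 on replicates 1, 3 and 4.

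Of the cytosolic folate enzymes, both were positive on replicates 1 and 2. Shmt1, the cytosolic serine hydroxymethyltransferase, had 0.26, 0.03, -0.07 and -0.15 on replicates 1 to 4 and averaged 0.02 ± 0.18 (SD, n = 4). Replicates 1 and 4 marked its ends, and the sign was split evenly. Mthfd1, the trifunctional enzyme that interconverts the cytosolic carbon units, had 0.11, 0.25, -0.02 and 0.08. It had the smallest spread of the 9, with a mean of 0.11 ± 0.11 and a limma 95% interval of -0.07 to 0.29, and 11.3% of the genes with a never dim spot had a smaller SD. This SD is that of the averaged spots, and the 2 spots of Mthfd1 taken singly had SDs of 0.14 and 0.19. Its fitted mean was 0.06 without replicate 2.

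The mitochondrial folate enzymes did not move as a block. Shmt2, the mitochondrial hydroxymethyltransferase, had -0.26, 0.16, 0.09 and -0.19 on replicates 1 to 4 and averaged -0.05 ± 0.21 (SD, n = 4). Mthfd2, the mitochondrial dehydrogenase and cyclohydrolase, had -0.06, 0.38, 0.10 and -0.05, a mean of 0.09 ± 0.20. Both were positive on replicates 2 and 3 and negative on replicates 1 and 4. Mthfd1l, which releases formate in mitochondria, had 0.07, -0.02, 0.40 and 0.04, a mean of 0.12 ± 0.19. Its replicate 3 was the highest pair, and without it the fitted mean was 0.04, against 0.20 without replicate 1.

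Set against its cytosolic counterpart on the same array, no mitochondrial enzyme kept 1 side on all 4 arrays. Shmt2 minus Shmt1 was -0.51, 0.13, 0.16 and -0.05 on replicates 1 to 4. Mthfd1l minus Mthfd1 was -0.05, -0.27, 0.41 and -0.04, and Mthfd2 minus Mthfd1 was -0.17, 0.13, 0.12 and -0.13. Averaged over the 3 mitochondrial and the 2 cytosolic enzymes the difference was -0.0071 ± 0.21 (SD, n = 4). With 4 arrays the smallest two-sided p of an exact sign-flip test is 0.125, and none was run.

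Aldh18a1, the synthase that starts proline formation from glutamate, had -0.44, -0.05, 0.30 and -0.29 on replicates 1 to 4. It was positive on replicate 3 alone and had a mean of -0.12 ± 0.32 (SD, n = 4; limma 95% interval -0.51 to 0.27).

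**Figure D3:**
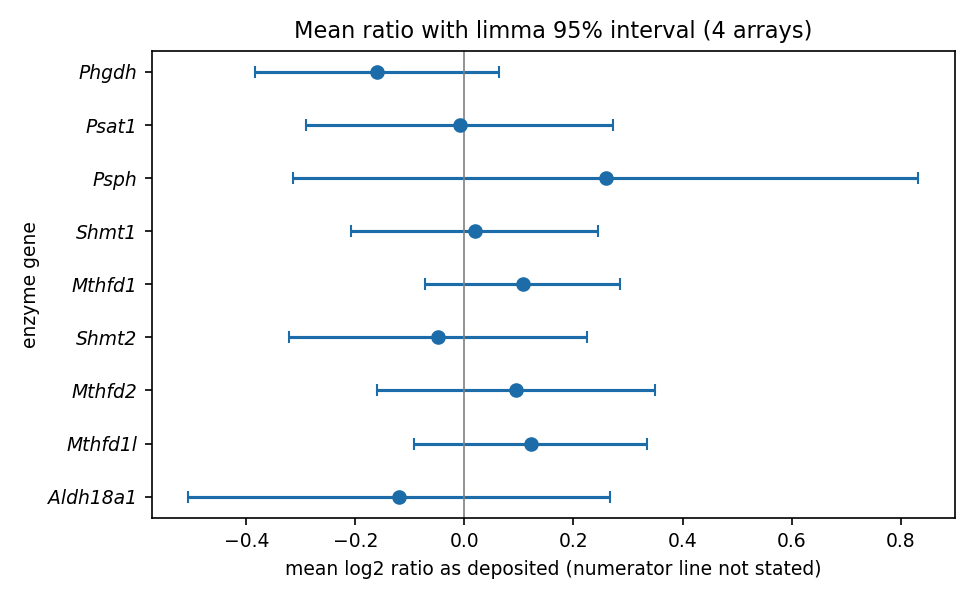
Mean log2 ratio as deposited (horizontal axis) of the 9 enzyme genes (vertical axis) with its limma 95% interval over 4 arrays. Each interval contains 0, and those of Psph and Aldh18a1 are the widest.

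Across arrays, 7 of the 9 enzymes lay lower on both replicates 1 and 4 than on replicate 3, against 34.3% of all genes. On replicates 1 to 4, 3, 5, 7 and 2 of the 9 were positive, and the medians over the 9 were -0.12, 0.03, 0.10 and -0.15. Phgdh, Psat1, Psph, Shmt2, Mthfd2 and Aldh18a1 were negative on replicates 1 and 4 and positive on replicate 3, which makes 6 of 9 against 13.4% of all genes and 15.4% of those with a never dim spot. This pattern was picked after the values were seen, the 9 genes share the same arrays, and the value of Phgdh on replicate 3 is near 0, so the count is a description. Replicates 1 and 3 have the same dye orientation. No enzyme had an unadjusted p under 0.05 for the dye effect, against 8.97% of all genes.

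Of 75 measured genes of glycine and serine use, folate, purine, proline and the ATF4 axis, 0 passed in limma at an adjusted p of 0.05, as 0% of all genes did, and an unadjusted p under 0.05 was found for 4 with positive and 2 with negative means, against 3.64% of all genes on either side. Among 15 other folate genes 7 had a positive mean, and their median mean ratio was -0.0080. Aldh1l1, the cytosolic formyltetrahydrofolate dehydrogenase, had 1.64, 0.82, 0.75 and -0.17 on replicates 1 to 4 and averaged 0.76 ± 0.74 (SD, n = 4; limma unadjusted p = 0.0277, adjusted p = 0.9997). Its mitochondrial counterpart Aldh1l2 had -0.76, -0.19, 0.37 and -0.38, a mean of -0.24 ± 0.47. The 2 formyltetrahydrofolate dehydrogenases thus lay on opposite sides on replicates 1 and 2. Slc25a32, the mitochondrial folate carrier, had a mean of 0.11 ± 0.22.

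Of 12 genes of purine synthesis, which consumes formyl groups, 11 had a positive mean, against 49.5% of all genes, with a median mean ratio of 0.15. The list was chosen with earlier results of these data known, and its genes share the same arrays, so the count is a description. Without replicates 1 to 4 in turn, 10, 11, 10 and 11 of the 12 were positive, with medians from 0.11 to 0.20. With the ratios read as not turned, where the mean equals the dye effect, 5 of the 12 were positive, with a median of -0.01. The mean over its genes was 0.06, 0.16, 0.25 and 0.09 on replicates 1 to 4. Ppat, the amidotransferase of the first committed step, had 0.22, 0.30, 0.17 and 0.18, a mean of 0.22 ± 0.06 (SD, n = 4; limma unadjusted p = 0.0193, adjusted p = 0.9997). It was positive on all 4 arrays, as were 4.37% of all genes. Paics, which acts later, had 0.38, -0.05, 0.41 and 0.02, and Gart, a formyl group acceptor, had 0.17, 0.24, 0.04 and 0.10. Paics was higher on replicates 1 and 3, which share a dye orientation. Its dye effect was 0.21 (limma unadjusted p = 0.02, adjusted p = 0.546), beside a mean of 0.19 (limma unadjusted p = 0.0275, adjusted p = 0.9997). Adsl and Gmps of this list too had an unadjusted limma p under 0.05 for the dye effect, as did 8.97% of all genes. Gart, Adsl and Gmps were chosen after their values were seen.

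Of 11 genes of glycine and serine use, 7 had a positive mean, and the median was 0.08. Sptlc1, a subunit of serine palmitoyltransferase, had a mean of 0.23 ± 0.25 (SD, n = 4), and Gatm, which uses glycine for creatine synthesis and had no never dim spot, had 0.11 ± 0.07. Of 12 other proline and ornithine genes, 8 had a positive mean, and the median was 0.07. Aldh4a1, which oxidises proline's breakdown product, had 0.17, 0.12, 0.38 and 0.13 on replicates 1 to 4 and averaged 0.20 ± 0.12 (limma unadjusted p = 0.0337, adjusted p = 0.9997). Its spots differed, with a mean of 0.37 at the never dim one and 0.03 at the other. Pycrl, now called Pycr3, an enzyme of the reductase family of Pycr1, had a mean of 0.06 ± 0.32, and Arg1, the cytosolic arginase, had 0.13 ± 0.12 from a spot dim on at least 1 array.

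Of 25 genes of the ATF4 axis, 6 had a positive mean, against 49.5% of all genes, and 19 a negative one, with a median of -0.09. This list too was chosen with earlier results known, and its genes share the same arrays, so the count is a description. Without replicate 1, 10 were positive and the median was -0.03. Without replicates 2, 3 and 4 in turn, 9, 6 and 7 were positive, with medians of -0.10, -0.15 and -0.10. With the ratios read as not turned 16 were positive and the median was 0.03. Atf4 itself had -0.0055, 0.25, -0.03 and 0.03 on replicates 1 to 4 and averaged 0.06 ± 0.13 (SD, n = 4). The asparagine synthetase gene Asns had -0.72, 0.20, 0.90 and -0.36, a mean of 0.0022 ± 0.71, and the pseudokinase gene Trib3 had -0.33, -0.47, 0.22 and -0.14. Both were negative on replicates 1 and 4 and positive on replicate 3, as were 6 of the 25 genes and 13.4% of all genes. The genes of smallest p were Ppp1r15a, the phosphatase subunit that ends the response, and Ddit4, an inhibitor of mTOR. Ppp1r15a had -0.52, 0.01, -0.96 and -0.32, a mean of -0.45 ± 0.40 (limma unadjusted p = 0.0128, adjusted p = 0.9997). Ddit4 had -0.22, -0.19, -0.58 and -0.75, a mean of -0.43 ± 0.27 (limma unadjusted p = 0.0227, adjusted p = 0.9997). Both were negative on replicate 3, where Asns was positive. Ddit3, a factor of the late response, had 0.37, -0.32, 0.34 and -0.84, a mean of -0.11 ± 0.58. Its signs alternated with the dye orientation, with a dye effect of 0.47 (limma unadjusted p = 0.0095, adjusted p = 0.546).

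**Figure D4:**
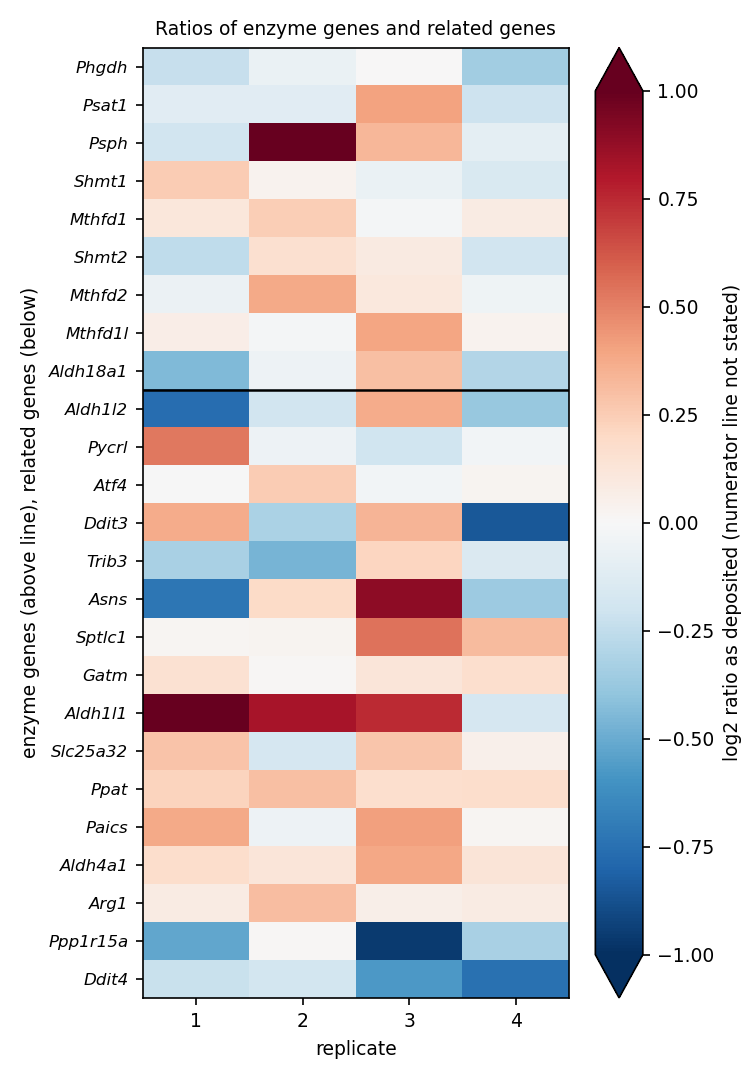
Log2 ratio as deposited (colour, limited at -1 and 1) of the 9 enzyme genes above the line and 16 related genes below it, on replicates 1 to 4. Asns, Aldh1l2 and Aldh18a1 are negative on replicates 1 and 4 and positive on replicate 3.

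Among the genes with a never dim spot, those closest to Psph over the 4 arrays were Timp1, Lrmp and Polr2c, with root mean square differences of 0.05, 0.07 and 0.12. Timp1, an inhibitor of matrix metalloproteinases, had -0.11, 0.95, 0.38 and -0.07 on replicates 1 to 4. They were picked from 9765 genes for their closeness over 4 arrays, and nothing is drawn from it.

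Markers of leukocytes, epithelium and adipocytes had 8 of 9 means on the negative side, against 9647 of all 19087 genes. Averaged over the 9 markers, replicates 1 to 4 gave -0.01, -0.11, -0.03 and -0.13. Among the negative means, those of Ptprc (-0.0014) and Epcam (-0.01) were near 0. The markers share the same arrays, so the count is a description. Plin1 of adipocytes, at 0.20 ± 0.11 (SD, n = 4), was dim on at least 1 array. Adipoq, the other adipocyte marker, lay on the other side at -0.07 ± 0.17. Lyz2 of macrophages had -0.32 ± 0.19, and its spots differed, with means of -0.69 and 0.04. Cd68 was not analysed here. A part of other cells in the results was not tested.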

How the data were processed

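The 4 arrays compared mtBALB with mtB6 cultures, 2 in each dye orientation. The authors deposited 1 log2 ratio per spot and array, for which the submitters' processing notes name limma. The base was taken as 2. How background was corrected and arrays were normalized is not given in the sources used here. Of 45220 spots, 33653 had 1 gene in the platform annotation, 56 several and 11511 none. Symbols were updated through gene IDs to RefSeq GRCm38.p6 (18966 of 19087 genes matched), and a gene's spots were averaged. Of 171 spots with no gene and an absolute ratio of at least 0.6 on every array, 163 alternated in sign with the dye and 0 kept 1 sign, as control transcripts bound to a dye would after turning, so the ratios were read as turned.

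limma 3.58.1 under R 4.3.3 (lmFit, eBayes) was fitted to all genes with a mean and a dye term, leaving 2 residual degrees of freedom, with Benjamini-Hochberg adjustment over all genes and a threshold of 0.05. Values are means ± SD over 4 arrays. The alternatives were no dye term, never dim spots, medians of spots, scaled arrays, ratios not turned, robust eBayes and each replicate left out.

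The enzymes and gene lists were chosen with earlier results of these data known, and the motifs after the data were seen. Beside the enzymes, the named genes are Mthfd2l, Aldh1l2, Pycr3, Atf4, Asns, Ddit3 and Trib3 where measured, the 2 of smallest p per list, and the 3 closest in pattern to the enzyme of largest mean ratio. Mthfd2l was not analysed here, and 1 item is not reported here.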

Additional observations from a re-analysis of the deposited data

Results flagged for a closer look

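By Dixon's criterion for 4 values, 3 of 27 named genes and 0 of 10 list means had 1 array far from the others, where chance marks about 1 in 20 groups. Psat1 had 0.399 on replicate 3. Arg1 had 0.31 on replicate 2, from a spot that was dim on at least 1 array. Lyz2 had -0.613 on replicate 2, and its spots differed, with a never dim spot at a mean of -0.69 and another at 0.04.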

How the results depend on the processing

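The count of enzymes, of related genes and of all genes past an adjusted p of 0.05 in limma was 0 under each of the 10 alternatives, and the lowest adjusted p of any enzyme was 0.545. The lowest unadjusted p was 0.0291, for Aldh18a1 without replicate 3. Of 90 enzyme means under alternatives, 75 kept their side and 15 changed it. Many could not change, since dropping the dye term, keeping never dim spots and robust eBayes left every mean as it was. Medians of spots could alter only Phgdh, the enzyme with 3 spots. The count of 75 is therefore not a measure of stability. Of the 15 changes, 6 came from reading the ratios as not turned, where the mean equals the dye effect of the main fit. These means were 0.046 for Phgdh, 0.151 for Psat1, -0.189 for Psph, -0.0588 for Mthfd1, -0.0712 for Mthfd2 and 0.0501 for Aldh18a1. With a replicate left out, the fitted mean ranged from -0.137 to 0.12 for Psat1, from -0.0136 to 0.532 for Psph, from -0.0622 to 0.0994 for Shmt1, from -0.137 to 0.0402 for Shmt2, from -0.0111 to 0.199 for Mthfd2, from -0.305 to 0.065 for Aldh18a1, from -0.23 to -0.0906 for Phgdh, from 0.0645 to 0.149 for Mthfd1 and from 0.0389 to 0.204 for Mthfd1l. The side changed without replicate 1 for Psat1, Shmt1, Shmt2 and Aldh18a1, without replicate 2 for Psph, Shmt1 and Mthfd2, and without replicate 4 for Psat1 and Shmt2. Enzymes with a positive mean numbered 2 to 7, with 2 when replicate 2 was left out, and the median of the 9 ranged from -0.03 to 0.07. The cause was not tested. The ratio within each array already pairs the cultures of 1 replicate number, so that the fit is a paired one and no further replicate block was added.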

Other observations

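Eif2ak2, Myc, Cth and Slc7a11 of the lists, all chosen after their values were seen, had wide ratios that differed in sign between pairs. Eif2ak2, the kinase that senses double-stranded RNA, had 0.80, -0.43, -0.94 and 0.29 on replicates 1 to 4, opposite in sign to Asns on every array. The growth regulator Myc had -0.33, -0.76, -1.87 and 0.40. Cth, which makes cysteine from cystathionine, had -1.93, 0.15, 0.43 and -0.57, and the cystine transporter gene Slc7a11 had -0.89, -0.08, 0.85 and -0.22. Cbs, which acts before Cth, had narrower ratios of 0.16, 0.02, -9.2e-04 and -0.20. None of these genes had an unadjusted p under 0.05 in limma.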
